A study of Mus musculus with 8 samples.

Results

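The transcriptome of sorted dermal fibroblasts from mice on a normal diet (ND) was described from 3 of the 8 arrays of the series. These are the arrays ND 1, 2 and 3, whose labels give the normal diet group and mark them as included by quality control. The mice were female, began the diet at 2 months of age and stayed on it for 6 months, and all animals of the study were killed on the same day. The other arrays are a ND array that the labels exclude by quality control (ND 4) and 4 arrays of mice on a high fat diet (HFD), with 4 animals per diet. They are given only beside the values they touch. The labels name no strain. No group was tested against another, so the values below are levels and their spread over 3 arrays, each taken as 1 mouse.

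The cells came from skin whose subdermal layer had been cut away and which was then digested with collagenase. Sorting kept cells positive for Pdgfra and CD34 and dropped those with CD45, CD117, CD24, CD31 or EpCam, surface proteins of blood, mast, endothelial and epithelial cells among others. RNA of 10000 sorted cells per sample was amplified over 20 cycles before labelling. The sample is therefore a sorted CD34-positive fraction of dermal cells and not whole dermis.

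Dermal fibroblasts build and renew the connective tissue of the skin. They secrete collagen I and III, which form the fibrils that give the dermis its strength, proteoglycans that set fibril width, and the elastic fibres that let skin recoil. They also release the proteases that remodel this matrix, and the growth factors and chemokines that guide hair follicles, fat cells and immune cells. Papillary fibroblasts lie under the epidermis and reticular fibroblasts deeper in the dermis.

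Signals are the deposited log2 values, so a difference of 1 is a doubling of signal. Each gene was represented by the probe set (the group of array probes for a transcript) with the highest mean over ND 1, 2 and 3, among probe sets with 1 gene symbol, which gave 17097 genes. Probe sets differ in how strongly they bind, so an order of genes is one of signal and not of RNA molecules. Background was taken from 155 genes of other tissues, among them olfactory receptors, germ cell, lens, liver and Y-linked genes. Their 95th percentile was 6.72 in ND 1, 6.87 in ND 2 and 6.71 in ND 3. A gene was called above background when it exceeded that level in each of the 3 arrays, which held for 8066 genes or 47.2% of all. This count moves with the reference. It was 4806 when the brightest of the nonspecific control probe sets was used and 10627 with the receptor genes alone.

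The 3 arrays resembled each other closely, but they did not sit alike among the other arrays. Over all genes the SD of the difference between arrays was 0.2004 for ND 1 and ND 2, 0.2203 for ND 1 and ND 3 and 0.2175 for ND 2 and ND 3. The excluded array ND 4 lay at 0.2152 from ND 1, 0.2185 from ND 2 and 0.3027 from ND 3. It lay nearer to the HFD arrays, at 0.1796 to 0.2063. ND 1 and ND 2 lay at 0.2238 to 0.2631 and 0.2221 to 0.2755 from the HFD arrays. The lowest of these were close to the 0.2203 of ND 1 and ND 3. ND 3 was farthest from the HFD arrays, at 0.297 to 0.3531. Leaving out ND 3 gave 8139 genes above background, and 97 of the first 100 genes were shared with the order over all 3 arrays. With ND 4 included, 7870 genes were above background and 97 of the first 100 were again shared.

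The highest signals included genes of the collagen-binding matrix, the cytoskeleton and the translation machinery, and transcription factors such as Egr1 and Fosb. Decorin (Dcn), a small proteoglycan that coats collagen fibrils, came first of all 17097 genes and read 13.47, 13.46 and 13.48 in ND 1, 2 and 3. Col1a1, the main chain of collagen I, read 13.24, 13.14 and 13.23 and ranked 3. Col3a1, the chain of collagen III, read 13.01, 13.18 and 12.97 and ranked 4. These arrays lay within 0.21 of each other for every one of the 3 genes, and the genes were also at 13.41, 13.18 and 13.11 in ND 4. Lum, another collagen-binding proteoglycan, read 12.68, 12.66 and 12.67 and ranked 26. Cd34, the surface protein of the sort, read 12.07, 12.11 and 12.07 and ranked 110. All 5 of these fibroblast markers were thus above background in each array, with ranges of 0.02 to 0.21.

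Beyond these, the first 25 named genes held the beta-actin gene Actb at 13.42 and the elongation factor Eef1a1 at 13.05. They held the class I histocompatibility gene H2-K1 at 13.00, the protease inhibitor Timp2 at 12.94, and the matricellular genes Sparc at 12.87 and Tnxb at 12.83. The collagen-associated protein Aebp1 read 12.75 and the elastic fibre protein Fbln1 12.67. The remaining members were Hnrnpab, Ramp2, Egr1, Dusp1, Phf20l1, Fosb, Nedd4, Rps2, Rps6, Tmsb10, Mt1, Gapdh, Malat1 and Gsn. Their means lay between 12.69 for the actin-severing protein Gsn and 12.96 for the RNA-binding protein Hnrnpab. Further down, the level was 12.14 at rank 100, 11.04 at rank 500 and 10.30 at rank 1000, and the median gene read 6.76.

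Some of these places rest on 1 probe set of several. Of the 25 genes, 16 had more than 1 probe set, and in 11 another lay over 2 log2 lower. Phf20l1, a chromatin reader, read 12.86 with its highest probe set and 4.56 with its lowest, and the ribosomal protein Rps6 read 12.76 and 5.34. Col3a1, ranked 4, read 13.05 with its highest probe set and 9.11 with its other one. Dcn and Col1a1 have 1 probe set each. When the mean of all probe sets stood for a gene, 62 of the first 100 genes were still among the first 100.

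**Figure D1:**
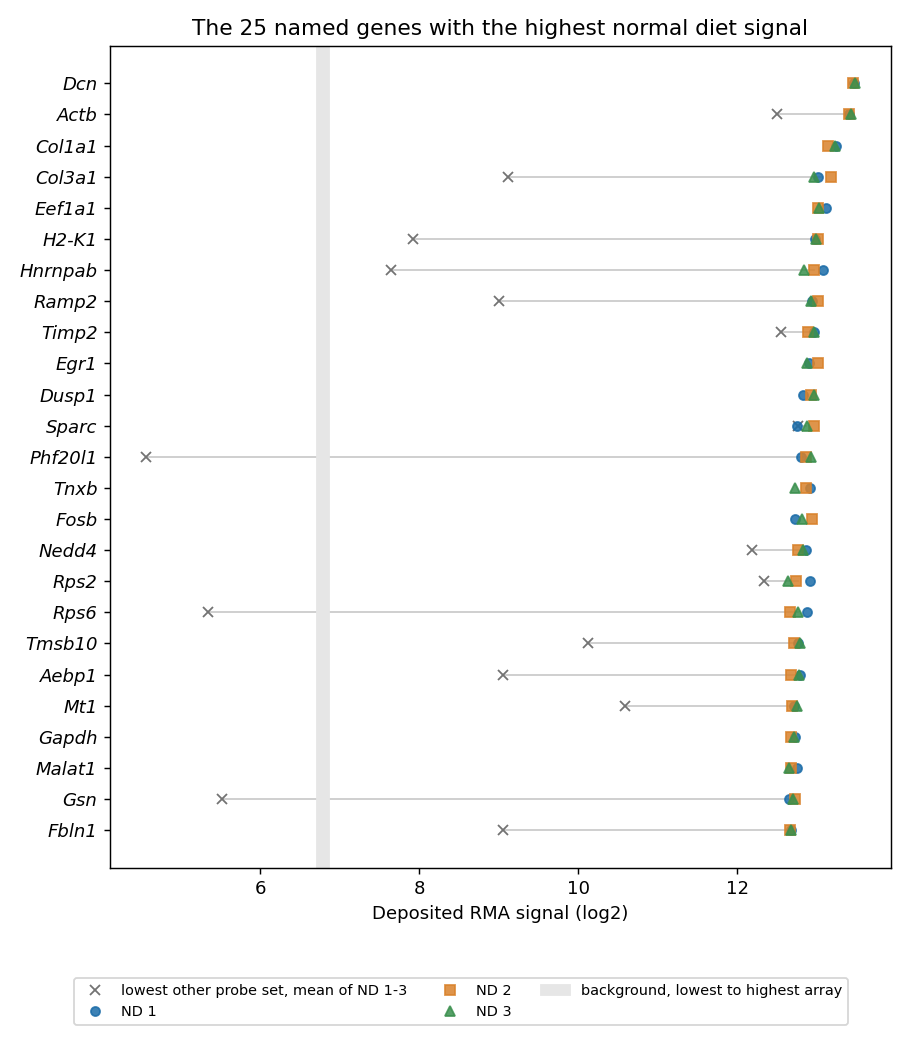
Deposited log2 signal (x axis) of the 25 named genes with the highest mean (y axis), with 1 symbol per array, ND 1, 2 and 3. Grey crosses give the mean of the gene's lowest probe set where it has several, and the grey band spans the background of 6.71 to 6.87. The 3 arrays almost coincide, while 11 genes have a probe set over 2 log2 lower, as far down as 4.56 for Phf20l1.

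The gene lists counted here were chosen with earlier results of these data known. Genes of the matrix with its processing and turnover made up 19 of the first 100 genes, beside 163 of all 17097 genes (0.953%). Ribosomal proteins and translation factors held 15 places (94 genes, 0.55%). Immediate early and dissociation genes, called immediate early below, held 7 places (34 genes, 0.199%). Cytoskeletal genes held 6, iron and redox genes 4, lysosomal genes 3, and histocompatibility genes and the secretory pathway with its chaperones 2 each. Mitochondrial oxidative phosphorylation, with 69 genes, held none. The other 43 of the first 100 lay in none of these groups. Among the first 500 genes the order changed, with 56 ribosomal and translation genes, 42 matrix genes and 22 immediate early genes. The same counts in the first 100 of the 4 HFD arrays were 18, 15 and 7, for matrix, translation and immediate early genes.

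Structural matrix genes spanned nearly the whole range of signal. Of 112 structural matrix genes measured, 71 were above background (63.4%, beside 47.2% of all genes), with a median of 8.90 and a range from 4.05 to 13.47. Among 11 fibrillar collagen genes, the chains of collagen I, III and V led. Col5a1, which starts and limits fibril growth, read 12.05, 12.24 and 12.13. Col5a2 had a mean of 11.77, and its other probe set read 7.12. In contrast the cartilage collagens Col11a1 and Col11a2 read 5.65 and 5.36, and 4 of the 11 were not above background. The second chain of collagen I, Col1a2, read 9.04 from its only probe set, with an SD of 0.036 over the arrays. Collagen I is built from both chains, but values of different probe sets do not give their ratio.

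Of 30 other collagens, 12 were above background (40.0%, beside 47.2% of all genes). The highest were Col6a1, of the beaded filaments around cells, at 11.52, the basement membrane chain Col4a1 at 11.39, Col15a1 at 10.98 and Col16a1 at 10.70. Col7a1 and Col17a1, which anchor the epidermis and are known from keratinocytes, read 6.80 and 6.83 and were not above background. Basement membrane genes were above background in 9 of 13 (69.2%). They were led by Col4a1, the heparan sulphate proteoglycan Hspg2 at 10.97, Nid1 at 10.80 and Lamc1 at 10.67. The laminin chains of the epidermal junction, Lama3 at 5.35 and Lamb3 at 5.41, were not above background.

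Small leucine-rich proteoglycans were above background in 10 of 15 (66.7%, beside 47.2% of all genes). Of these, 3 stood in the first 100, Dcn, Lum and Bgn. Biglycan (Bgn) read 12.34, 12.47 and 12.38, and Prelp had a mean of 11.20. Elastic fibre genes were above background in 15 of 17 (88.2%). They were led by Fbln1, the microfibril protein Mfap4 at 12.48, elastin (Eln) at 12.39 and the TGF-beta binding protein Ltbp4 at 12.32. Matricellular and adhesive glycoproteins were above background in 21 of 29 (72.4%), with Sparc, Tnxb, fibronectin (Fn1) at 12.33 and Dpt at 12.13. The exceptions included tenascin C (Tnc) at 5.73 and Ccn2 at 5.53, genes known from wounds and fibrosis.

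The genes that fold, trim and crosslink collagen were above background in 20 of 25 (80.0%, beside 47.2% of all genes). Pcolce2, which aids removal of the collagen propeptide, read 12.71, 12.66 and 12.60. Serpinh1, the collagen chaperone, read 12.46, 12.52 and 12.53, and the propeptide-cleaving protease Bmp1 had a mean of 11.94. Among 29 matrix proteases and inhibitors 24 were above background (82.8%). Timp2 was the highest, followed by the anti-angiogenic serpin Serpinf1 at 12.24, the gelatinase Mmp2 at 12.22 and the lysosomal protease Ctsl at 12.16. The collagenase Mmp13 read 3.85, Mmp12 4.81, Mmp10 4.84 and Mmp9 6.07, and none of these was above background. The secretory pathway was above background in 39 of 41 genes (95.1%). It was led by Kdelr2 at 12.35, Ssr3 at 12.06, Arf4 at 11.91 and Hsp90b1 at 11.90.

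**Figure D2:**
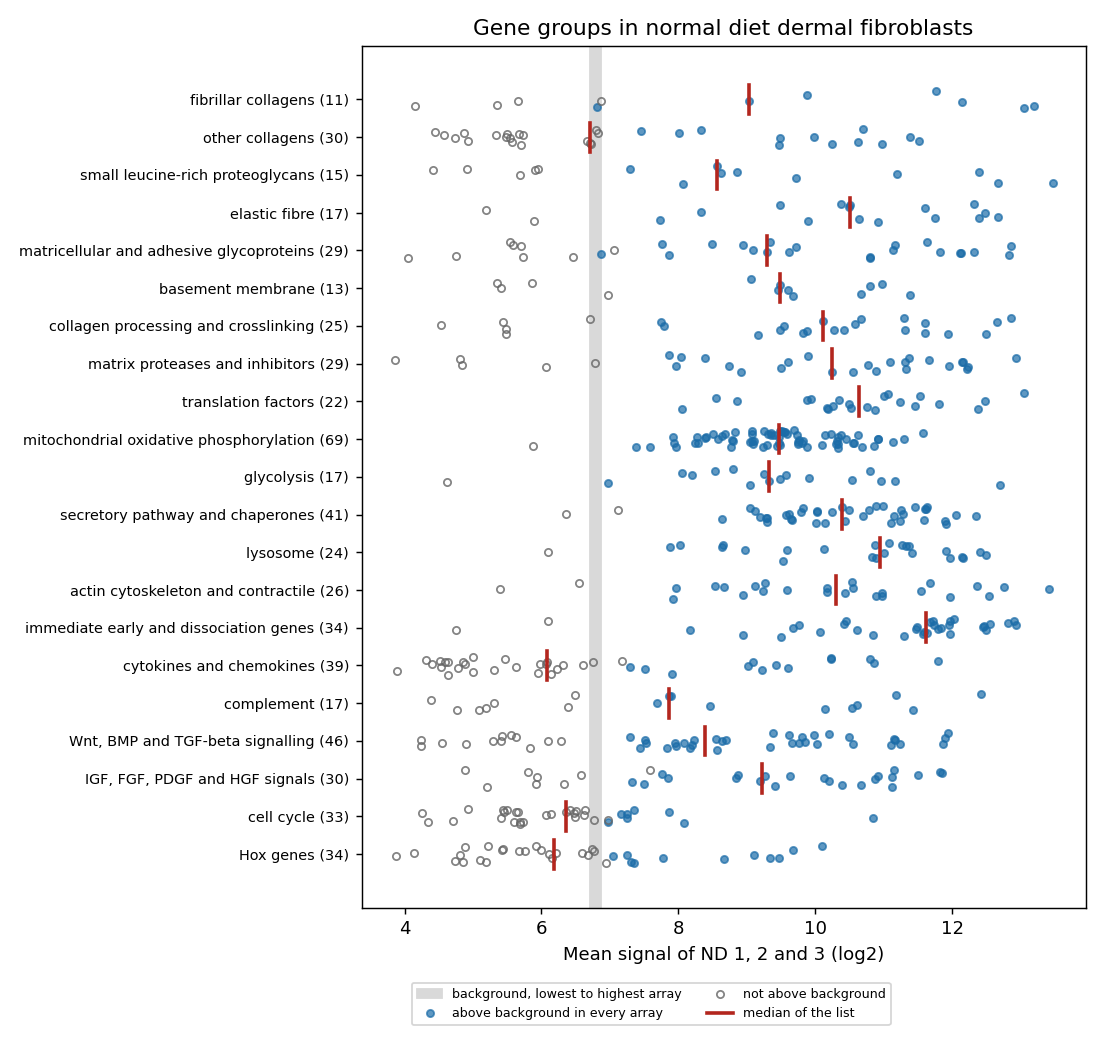
Mean log2 signal over ND 1, 2 and 3 (x axis) of every measured member of 21 gene groups (y axis, number measured in brackets). Filled points are above background in every array, open points are not, red bars are medians and the grey band is the background. The immediate early and dissociation group has the highest median, 11.61. The cytokine, cell cycle and Hox groups have medians of 6.08 to 6.36.

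Cytosolic ribosomal proteins were nearly all high. Of 72 members 70 were above background (97.2%, beside 47.2% of all genes). The family had 12 members in the first 100, 48 in the first 500 and a median of 11.32. Rps2 read 12.91, 12.74 and 12.64, Rps6 12.87, 12.66 and 12.76, and Rpl4 12.53, 12.36 and 12.34. In all 3 genes ND 1 was the highest array, and over the family ND 1 had a median of 11.52 beside 11.24 in ND 2 and 11.22 in ND 3. The 2 members not above background were Rpl3l, a muscle paralog, at 5.08 and Rpl14 at 5.88. Many ribosomal protein genes have near-identical pseudogene copies. Without probe sets whose suffix marks probes shared with other transcripts, 11 in place of 15 ribosomal and translation genes stood in the first 100. All 22 translation factors were above background, with Eef1a1, Eef2 at 12.48, Eif4a1 at 12.38 and Eif5a at 11.82 on top. Mitochondrial ribosomal proteins, 63 of 73 above background, had a median of 8.07 and none in the first 500.

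The sequence before the transcription start was described for the same genes. Promoters were taken from RefSeq, GRCm38.p6, as the 250 bases before the start farthest upstream, and 13605 of the 17097 genes had an entry. The motif CCGGAAG, a core of ETS family factors, was searched on both strands. It was found in 18 of 58 ribosomal promoters (31.0%), in 14.5% of genes above background, in 6.8% of genes not above background and in 10.5% of all. The 100 bases before the start of 4 ribosomal genes among the first 500 are printed 5′ to 3′ to show where it lies, with the motif or its reverse complement in capitals.
Rps6, chr4:86857368-86857467, minus strand: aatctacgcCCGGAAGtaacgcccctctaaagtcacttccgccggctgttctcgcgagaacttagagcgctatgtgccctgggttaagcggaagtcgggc
Rps3a1, chr3:86142669-86142768, minus strand: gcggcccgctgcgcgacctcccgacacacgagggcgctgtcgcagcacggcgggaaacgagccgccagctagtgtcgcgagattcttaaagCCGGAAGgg
Rps7, chr12:28635954-28636053, minus strand: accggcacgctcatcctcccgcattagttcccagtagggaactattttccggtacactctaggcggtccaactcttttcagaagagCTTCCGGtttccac
Rps21, chr2:180257279-180257378, plus strand: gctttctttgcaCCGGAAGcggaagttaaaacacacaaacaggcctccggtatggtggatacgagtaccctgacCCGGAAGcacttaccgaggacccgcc
Rps7 carries the reverse complement and Rps21 holds 2 copies. Counted back from the start, the motif begins at base 91 in Rps6, base 9 in Rps3a1, base 14 in Rps7, and bases 88 and 26 in Rps21. These genes read 12.76 (Rps6), 12.24 (Rps3a1) and 11.48 (Rps21) on average, and Rps7 read 12.13, 11.92 and 11.95. A match of letters is not a measured binding site.

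Promoters of genes above background held more CpG than those of the other genes. The median promoter held 16 CpG dinucleotides in genes above background and 7 in the others. A CpG-rich window (at least 50% GC and an observed to expected CpG ratio of at least 0.6) was found in 65.3% and 34.5% of them. Among the genes above background the share was not higher at the top, with 64.4% in the first 1000, 58.4% in the first 500 and 51.2% in the first 100. Background signal itself rises with GC content on this array: nonspecific probe sets with 3 GC bases read 3.64 on average and those with 25 read 7.80. The part of probe GC content in these shares was not tested. Matrix lists differed among themselves. Small leucine-rich proteoglycans had CpG-rich windows in 1 of 13, elastic fibre genes in 2 of 11, fibrillar collagens in 4 of 8, collagen processing genes in 10 of 17 and basement membrane genes in 6 of 9, beside 49.4% of all genes. Among them, the window of Col3a1 holds no CpG at all. Its last 100 bases and those of Fbln1 are shown, in lower case throughout because they hold none of the motifs searched.
Col3a1, chr1:45311438-45311537, plus strand: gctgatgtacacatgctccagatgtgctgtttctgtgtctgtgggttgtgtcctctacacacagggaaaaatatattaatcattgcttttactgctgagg
Fbln1, chr15:85205849-85205948, plus strand: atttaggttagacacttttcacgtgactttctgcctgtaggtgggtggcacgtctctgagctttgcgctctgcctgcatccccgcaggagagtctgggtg
Dcn, Col1a1 and Actb were without a matched entry.

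**Figure D3:**
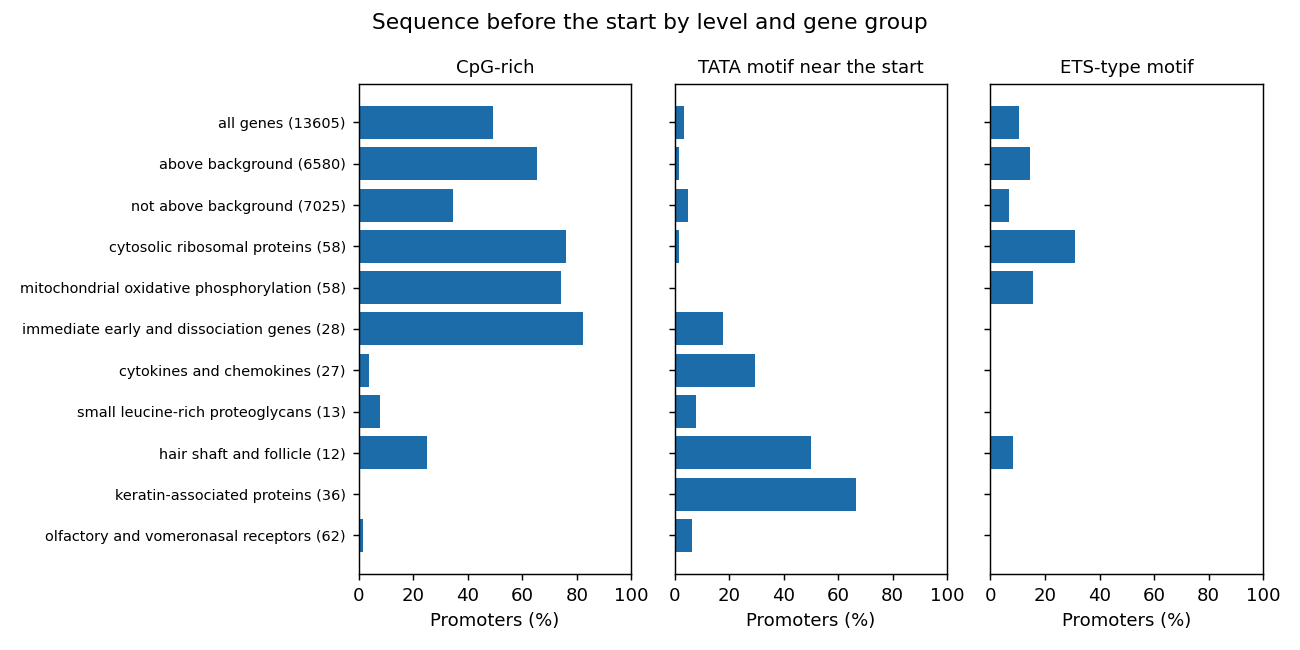
Share of promoters in percent (x axes) with a CpG-rich window, a TATA motif near the start or an ETS-type motif, for genes by level and for gene groups (y axis, number of promoters in brackets). The ribosomal group reaches 31.0% for the ETS-type motif, and keratin-associated proteins reach 66.7% for the TATA motif with no CpG-rich window.

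The list of immediate early and dissociation genes stood high in all 3 arrays. Immediate early genes are transcription factors and regulators that cells switch on within minutes of a stimulus. Of 34 measured, 32 were above background (94.1%, beside 47.2% of all genes). The list had 7 genes in the first 100, 22 in the first 500 and a median of 11.61. Egr1 read 12.90, 13.01 and 12.88, the phosphatase Dusp1 12.82, 12.93 and 12.96, and Fosb 12.72, 12.94 and 12.81. Atf3 had a mean of 12.56 and Fos, which forms AP-1 with Jun proteins, read 12.38, 12.49 and 12.52. The arrays stayed within 0.22 for each of these, and their medians over the list were 11.54 in ND 1, 11.75 in ND 2 and 11.61 in ND 3. The list includes genes chosen because tissue digestion and sorting are known to induce them. No undigested tissue was measured, so the level of its genes before digestion cannot be told apart from what digestion adds. ND 4 had a median of 11.75. Cytosolic heat shock proteins, which stress also induces, were above background in 13 of 13. They were led by Hspa8 at 12.16, Hspa1b at 11.80, Hsp90aa1 at 11.44 and Dnajb1 at 11.42. Hspa1b is counted in the immediate early list too, and its other probe sets read 7.18 and 7.03.

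Most promoters of the immediate early and dissociation list were rich in CpG, and a minority held a motif searched. A CpG-rich window was present in 23 of 28 (82.1%, beside 49.4% of all genes). The letters TATAAA, the core of the TATA box, were searched on both strands from 50 to 11 bases before the start and found in 5 of 28 (17.9%, beside 3.4% of all). The palindrome TGACGTCA, the binding motif of CREB and ATF factors, was in 3 of 28 (10.7%, beside 2.3%) over the 250 bases. The CArG box of serum response factor, searched as an exact match in the same 250 bases, was in none of the 28 windows and in 1.3% of all. Sequence farther upstream was not searched. Some genes of the list, among them Egr1, Egr3 and Ier2, were without a matched entry. Of the genes with a motif within 100 bases, 4 are shown with that motif in capitals, TATAAA in the first 3 and TGACGTCA in Ppp1r15a.
Fos, chr12:85473790-85473889, plus strand: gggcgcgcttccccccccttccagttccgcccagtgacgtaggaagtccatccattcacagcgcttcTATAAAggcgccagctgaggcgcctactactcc
Ccn1, chr3:145649986-145650085, minus strand: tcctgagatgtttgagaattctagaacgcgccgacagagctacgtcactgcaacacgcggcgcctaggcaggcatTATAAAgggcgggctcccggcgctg
Gadd45b, chr10:80929991-80930090, plus strand: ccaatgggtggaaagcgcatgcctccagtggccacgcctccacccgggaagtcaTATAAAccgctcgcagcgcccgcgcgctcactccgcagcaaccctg
Ppp1r15a, chr7:45526269-45526368, minus strand: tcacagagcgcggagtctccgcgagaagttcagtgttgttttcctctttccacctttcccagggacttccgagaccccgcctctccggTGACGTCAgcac
The motif begins 33 bases before the start in Fos, 25 in Ccn1, 46 in Gadd45b and 12 in Ppp1r15a. Signals were 12.46 for Fos, 11.64 for the matricellular gene Ccn1, 11.68 for the stress gene Gadd45b and 11.72 for the phosphatase subunit Ppp1r15a.

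Other housekeeping groups were nearly all above background, beside 47.2% of all genes. Oxidative phosphorylation was above background in 68 of 69 genes, with a median of 9.48 and 3 genes in the first 500. Its leading members were the ATP synthase subunit Atp5h at 11.58, Cox6a1 at 11.30, Ndufa3 at 11.13 and Cox6c at 10.92. Glycolysis was above background in 16 of 17, with Gapdh at 12.70, Ldha at 11.16, Aldoa at 10.96 and the glucose transporter Slc2a1 at 10.80. Lysosomal genes were above background in 23 of 24 and led by Laptm4a at 12.50, the saposin precursor Psap at 12.41, Ctsl and Ctsb at 12.14. The iron and redox group was above background in 29 of 31, led by the metallothionein Mt1 at 12.72, the ferritin chains Fth1 at 12.53 and Ftl1 at 12.40, and Prdx2 at 12.33. The cytoskeletal group reached 24 of 26, with Actb, Tmsb10 at 12.75, the fibroblast filament protein vimentin (Vim) at 12.54 and Cfl1 at 12.36.

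Proliferation genes were mostly at background. Of 33 cell cycle genes 8 were above it, a smaller share (24.2%) than the 47.2% of all genes. The replication clamp Pcna, which also serves DNA repair, was highest with 10.91, 10.94 and 10.67. Tyms at 8.08, Ccne1 at 7.87 and Mcm7 at 7.36 followed. Mki67, the usual marker of cycling cells, read 5.76, 5.54 and 5.90, and the mitotic kinase gene Cdk1 had a mean of 6.42.

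Among 39 cytokines and chemokines 13 were above background (33.3%, beside 47.2% of all genes). Ccl19, which attracts dendritic and T cells through CCR7, read 11.89, 11.75 and 11.74. The macrophage growth factor Csf1 had a mean of 10.86, the monocyte chemokine Ccl2 10.80 and Il6 10.24, where the arrays read 10.04, 10.38 and 10.29. Il17a at 4.52, Ifng at 4.41 and Il4 at 4.53, which lymphocytes make, were not above background. Complement was above background in 10 of 17 (58.8%). The C1 inhibitor Serping1 was highest at 12.42, then Cd55 at 11.43, the C1 protease C1s1 at 11.18 and factor B (Cfb) at 10.61, while the C1q chains of macrophages, C1qa, C1qb and C1qc, read 5.19, 5.08 and 6.39.

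Receptors and ligands of the main growth factor pathways are set beside the 47.2% of all genes. In the Wnt, BMP and TGF-beta list 34 of 46 genes (73.9%) were above background, led by Bmp1, the receptors Tgfbr2 at 11.89 and Tgfbr3 at 11.87, and the Wnt receptor Fzd2 at 11.23. In the list of IGF, FGF, PDGF and HGF signals 22 of 30 (73.3%) were. Its highest members were the IGF carrier Igfbp5 at 11.85, the receptor Fgfr1 at 11.82, the growth hormone receptor Ghr at 11.50 and Igf2 at 11.15. Adipogenic regulators and lipid genes were above background in 10 of 19 (52.6%), near the share of all genes, with the lipocalin Apod at 11.85, the desaturase Scd1 at 10.15, Cebpb at 10.06 and Cebpd at 9.80. Pparg, the master regulator of fat cells, read 6.26 and was not above background. Integrins, the receptors for matrix, were above background in 10 of 23 (43.5%), also near it, led by Itgb1 at 10.87 and Itgb5 at 10.68.

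Gene families were also counted, beside the 47.2% of all genes above background. Proteasome subunits were above background in 39 of 42, histones in 18 of 34 and solute carriers in 144 of 328, both near that share, and Zfp zinc finger genes in 100 of 298. Serpins were above background in 8 of 40, yet 4 of these, Serpinh1, Serping1, Serpina3n and Serpinf1, stood in the first 100. Interleukins were above background in 2 of 27 and keratins in 5 of 41. Olfactory and vomeronasal receptors, which served as part of the reference, were above background in 0 of 75 and had a median of 4.52.

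The sort could be read back in part. Of the proteins sorted against, none of the 5 genes was above background: Ptprc (CD45) read 4.06, 4.02 and 4.15, Kit (CD117) 4.25, 4.23 and 4.27, and Epcam 5.21, 5.24 and 5.25. Cd24a had a mean of 5.65. Pecam1 (CD31) was nearest to the background with 7.08, 6.85 and 6.51, above it in ND 1 alone. Cd34 was high, as given above. Pdgfra, the other positive marker, read 5.97, 6.01 and 5.79 from its only named probe set and was not above background in any array, although the cells were sorted for it. Whether this probe set reports the transcript was not tested. The related receptor Pdgfrb read 10.40, 9.95 and 10.02.

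Fibroblast identity genes were above background in 19 of 21 and had a median of 11.40. Besides the markers above they included Vim, the podoplanin gene Pdpn at 12.51, Prrx1 at 11.89, Thy1 at 11.88 and Cd248 at 11.40. The exceptions were Pdgfra and En1, the latter at 5.94, a gene of dorsal dermal precursors. Papillary genes were above background in 10 of 17 (58.8%, beside 47.2% of all genes), led by Pdpn, the Wnt inhibitor Apcdd1 at 11.90, Ntn1 at 10.51 and Lrig1 at 9.55. Reticular and adventitial genes were above background in 12 of 15 (80.0%), led by Tnxb, Plpp3 at 12.16, Dpt and Ly6c1 at 11.96. The reticular list median was higher in ND 1, at 11.16, than in ND 2 at 10.72 and ND 3 at 10.89. Dermal papilla genes were above background in 5 of 16, led by Vcan at 10.01, Fgf7 at 9.41, Crabp1 at 9.03 and Trps1 at 8.61, while Sox2, Corin and Wif1 read 3.96, 4.05 and 4.24.

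Markers of other lineages lay mostly at background. Of 220 genes in 15 lists, 44 were above it (20.0%, beside 47.2% of all genes), with a median of 5.72. Among the 155 reference genes that set the background, 7 were above it (4.5%). In a sorted pool, fewer cells of a type and less RNA per cell cannot be told apart. The count of 44 became 16 with the highest Y-linked gene as background, 22 with the 99th percentile of the reference genes, and 92 with the receptor genes alone. In the same settings the count over all 17097 genes moved too, from 8066 to 4658, 5420 and 10627. Among the first 1000 genes there were 2 such markers. Pmp22, a membrane protein of myelin that fibroblasts also express, ranked 68 with 12.26, 12.31 and 12.39. The alpha globin gene Hba-a2 ranked 290 with 11.44, 11.39 and 11.51. Its near-identical copy Hba-a1 read 8.34, and the red cell genes Slc4a1 and Alas2 read 6.76 and 6.24, not above background. Klf1, a red cell transcription factor, read 9.23, 8.68 and 8.06, and 3 of 6 erythroid markers were above background. A part of red cells in the globin value was not tested.

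**Figure D4:**
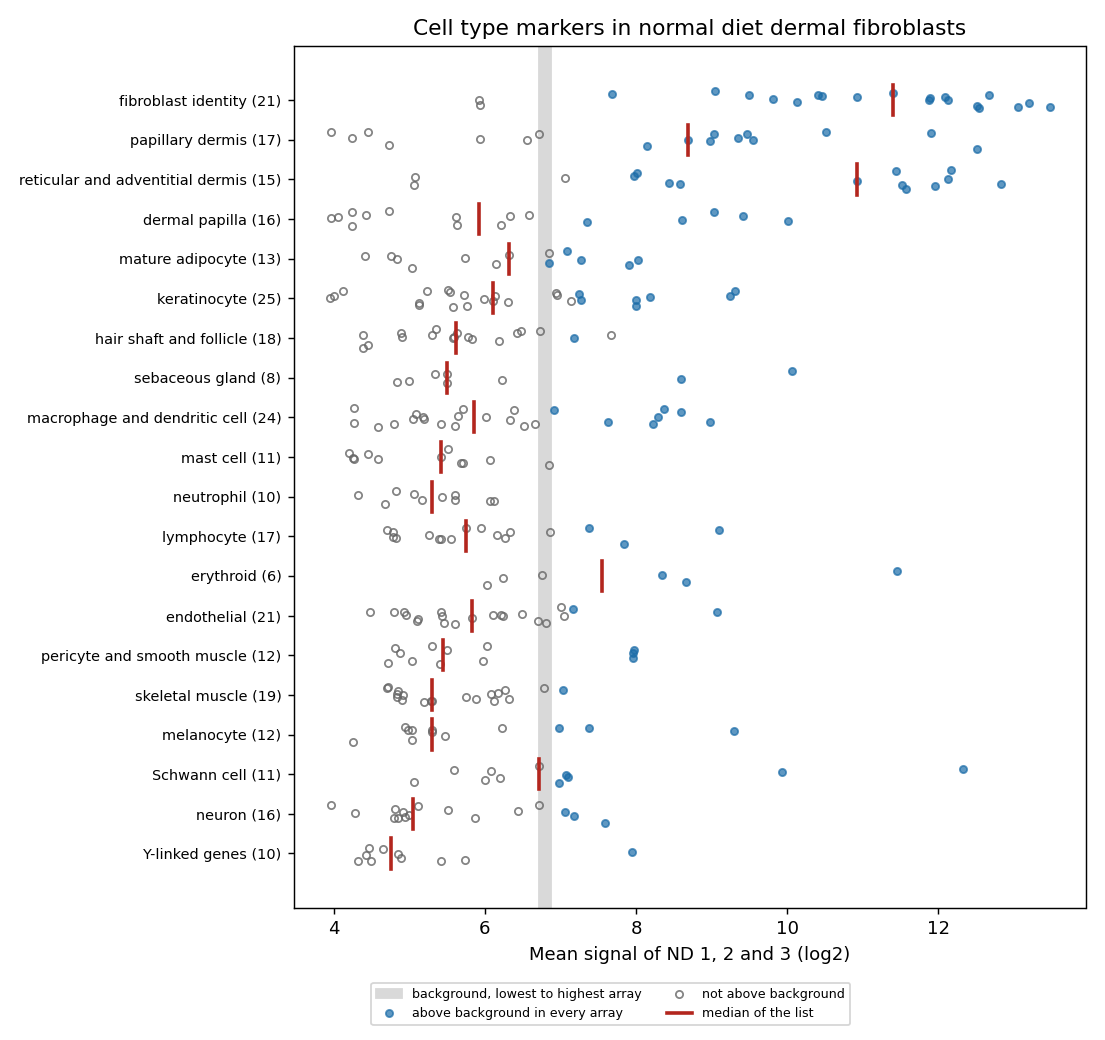
Mean log2 signal over ND 1, 2 and 3 (x axis) of the markers of 20 cell types or gene classes (y axis, number measured in brackets). Filled points are above background in every array, open points are not, red bars are list medians and the grey band is the background. The fibroblast identity list has a median of 11.40, while the lists of blood, vessel, muscle, nerve and epithelial cells have medians of 5.05 to 7.55.

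Mast cell and neutrophil markers were above background in 0 of 11 and 0 of 10 genes, beside 47.2% of all genes. Cma1 at 6.85 and S100a9 at 6.12 were the highest of each. The mast cell count was 1 without ND 2 and with the mean of probe sets, and 2 with receptor genes alone as background. Lymphocyte markers were above background in 3 of 17, Prf1 at 9.09, Cd79a at 7.84 and Cd4 at 7.37, while Cd3e, Cd3g and Ms4a1 read 4.82, 5.42 and 4.78. A second probe set of Prf1 read 5.31. Macrophage and dendritic markers reached 7 of 24 (29.2%). The highest were the lysosomal protein Cd68 at 8.98 and the class II genes H2-Aa at 8.60, H2-Ab1 at 8.36 and H2-Eb1 at 8.29. Among the list members not above background, Adgre1 and Itgam read 4.79 and 4.27.

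Endothelial markers were above background in 2 of 21, Eng at 9.07 and Flt1 at 7.17, and Cdh5, Vwf and Cldn5 read 5.12, 5.10 and 5.42. Pericyte and smooth muscle markers reached 3 of 12, with Acta2 at 7.97, Kcnj8 at 7.96 and Des at 7.95, while Myh11 read 5.50. Skeletal muscle was at 1 of 19, with Mb at 7.03. Without ND 2, whose background was the highest, 4 endothelial and 2 skeletal muscle markers were above background. Melanocyte markers reached 3 of 12, with Mitf at 9.30, Mc1r at 7.37 and Sox10 at 6.98, while the pigment enzymes Tyr and Dct read 5.29 and 5.03. Schwann cell markers reached 5 of 11 (45.5%, beside 47.2% of all genes), Pmp22, Ncam1 at 9.93, Ngfr at 7.10, Mbp at 7.08 and Sox10. Neuron markers reached 3 of 16, with Stmn2 at 7.59. Mature adipocyte markers reached 5 of 13 (38.5%). Dgat2, the last step of fat synthesis, was highest at 8.03, and Adipoq, Lep and Fabp4 read 4.41, 4.75 and 5.04.

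Keratinocyte markers varied more between the arrays than the other lineage lists. The departure of each array from the gene's ND mean was averaged over the list. This average ranged by 0.463 over the arrays, beside 0.324 for the reticular list, the next. Of 25 measured, 7 were above background (28.0%, beside 47.2% of all genes). The highest were the junction protein Jup at 9.31, Krt10 at 9.24, Krt5 at 8.19 and Dsp at 8.00. Krt10 read 9.55, 8.59 and 9.59, Krt5 8.84, 7.64 and 8.09, and Dsp 8.81, 6.90 and 8.29. ND 2 was the lowest array in all 3, and Jup, at 9.16, 9.36 and 9.41, did not follow them. The list median was 6.29 in ND 1, 5.73 in ND 2 and 6.01 in ND 3, beside 6.75 in ND 4. Krt14 was not above background at 6.95, and Krt2, Flg and Cdh1 read 3.95, 4.00 and 4.13. Sebaceous gland markers reached 2 of 8, Mgst1 at 10.06 and Plin2 at 8.60. Any share of epithelial cells in these values was not tested.

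Hair shaft and follicle markers were above background in 1 of 18 (5.6%, beside 47.2% of all genes), Krt34 at 7.17, and in 2 without ND 2. The stem cell gene Lgr5 read 9.12 in ND 1, 6.76 in ND 2 and 7.13 in ND 3, which is under the background of ND 2. Keratin-associated proteins, which harden the hair shaft, were above background in 5 of 38 and had a median of 4.44. In their promoters TATAAA lay in the window of 24 of 36 (66.7%, beside 3.4% of all genes), and in 6 of 12 of the hair list, and no keratin-associated promoter was CpG-rich. The 100 bases before the start of 3 hair genes are shown for contrast, with TATAAA in capitals.
Krtap3-1, chr11:99566631-99566730, minus strand: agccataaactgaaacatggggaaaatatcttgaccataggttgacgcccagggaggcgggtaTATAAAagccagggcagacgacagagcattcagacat
Krt34, chr11:100041555-100041654, minus strand: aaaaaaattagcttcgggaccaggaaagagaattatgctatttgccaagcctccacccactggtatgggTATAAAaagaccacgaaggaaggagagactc
Krt73, chr15:101802361-101802460, minus strand: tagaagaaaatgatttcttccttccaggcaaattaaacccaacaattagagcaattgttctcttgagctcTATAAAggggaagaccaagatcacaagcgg
The motif begins 37, 31 and 30 bases before the start. These genes read 7.67 (Krtap3-1), 7.17 (Krt34) and 6.47 (Krt73).

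Y-linked genes are absent from female mice. They belong to the reference genes that set the background, so their place under it is no independent check. Of 10 measured, 9 were not above background: Uba1y read 5.73, Usp9y 5.42, Kdm5d 4.89, Zfy2 4.85, Ssty1 4.66, Ssty2 4.49, Uty 4.47, Zfy1 4.42 and Eif2s3y 4.32. Sry was the exception, at 8.18, 7.80 and 7.87. Its probe set carries the suffix for probes that also match other transcripts, and its second probe set read 5.01.

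Agreement between the 3 arrays was high and depended on level. Pearson's r across genes was 0.9946 for ND 1 and ND 2, 0.9935 for ND 1 and ND 3 and 0.9936 for ND 2 and ND 3. With HFD arrays, r of these 3 arrays lay between 0.9831 (ND 3 and HFD 4) and 0.9934 (ND 2 and HFD 1). The points are genes of the same arrays and not independent replicates. The median SD per gene was 0.0985 over all genes, 0.0782 in the first 100, 0.1375 in the 4000 genes that follow the first 1000 and 0.0764 in genes not above background. The range over the arrays was under 0.5 in 93.0% of all genes. Of the first 100 genes of each array, 84 were common to all 3.

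The steadiest of the first 1000 genes included matrix genes already named. Dcn, Lum and Fbln1 each had an SD of 0.01, as did the integrin-like gene Itgbl1 at 11.24, the complement protease C1rb at 11.11 and Tnfsf9 at 10.52. Anapc5, a subunit of the anaphase-promoting complex, read 10.78 in every array, and Tnfaip2 10.56. Hspa1b had an SD of 0.006 and Fbxw11 of 0.012. Values are deposited with 2 decimals, which limits how small an SD can be told from none. Dcn lay next to 13.5, the highest value of all arrays, and whether the top of the scale limits its spread was not tested.

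At the other end, 49 genes above background ranged over more than 1 log2 across the arrays, and ND 3 was the farthest array in 24 of them, ND 1 in 14 and ND 2 in 11. The adhesion receptor Flrt1 read 7.85, 7.85 and 10.64, and the crosslinking enzyme Tgm2 8.66, 9.03 and 10.82. The oxytocin receptor Oxtr read 9.12, 9.34 and 10.87. ND 3 was the high array in all 3 genes, and the low one for Nrep at 9.52, 9.75 and 7.76. Col14a1, a collagen of fibril surfaces, read 9.17, 7.75 and 7.12, and the linker histone H1f2 8.72, 7.78 and 7.18, so ND 1 was highest in both. The other genes with the largest spread were Dsp, Hpca at 7.74, 8.46 and 6.82, Pla1a at 9.97, 8.35 and 9.25, and Angptl4 at 8.36, 9.58 and 9.86.

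**Figure D5:**
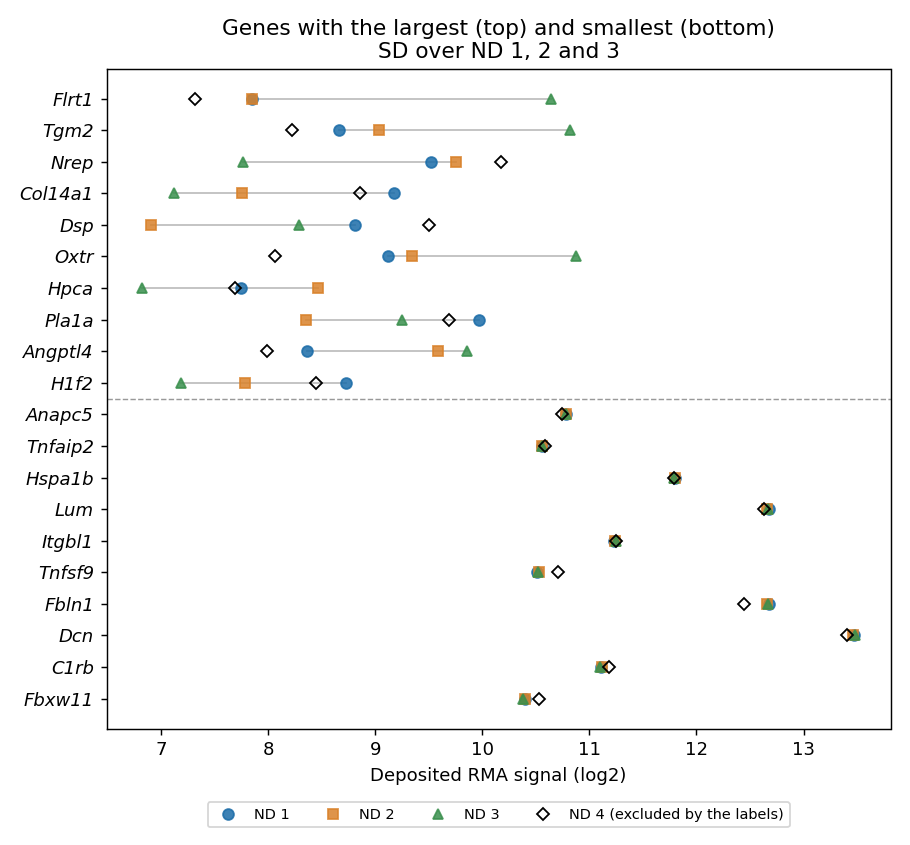
Deposited log2 signal (x axis) of the 10 genes with the largest SD among genes above background (upper rows) and the 10 with the smallest SD among the first 1000 (lower rows), 1 symbol per array, with grey lines over the range of ND 1 to 3. ND 3 stands apart for Flrt1, Tgm2, Nrep and Oxtr, and open diamonds give ND 4, which lies outside that range for 6 of the upper genes.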

How the data were processed

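Whole-genome expression arrays of sorted mouse dermal fibroblasts were analysed from the deposited values. The authors deposited log2 signals made with RMA and the affy package, per the submitters' processing notes. Tool versions are not given in the sources used here. RMA normalises all 8 arrays together, so levels of the ND arrays are not independent of the others. Values span 3.56 to 13.5 with 2 decimals, and precision is limited by there being 3 arrays.

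Of 45141 probe sets, 28898 had 1 gene symbol, 551 several and 104 were controls, and 15588 are not named here. The probe set with the highest mean over ND 1, 2 and 3 stood for a gene. A RefSeq table of GRCm38.p6 updated symbols and gave promoters. Proteins were not used here. Background was planned on receptor genes alone, but with 75 of the 100 needed the 95th percentile over all 155 reference genes was used. Levels were ranked and no group was tested. The members, gene lists and motifs were chosen with earlier results of these data known.

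Named genes are the first 25, up to 4 highest members of each list, the sort and fibroblast markers, Y-linked genes, the 10 largest SDs above background and the 10 smallest in the first 1000. Other genes named, mainly list members not above background and those with printed promoters, were chosen after their values were seen. Scripts in Python 3.11.15 (numpy 2.4.6, pandas 2.3.3, scipy 1.17.1, matplotlib 3.10.9) were tested on simulated data. Alternatives were other backgrounds, arrays, normalisations and rules for the probe set. The receptor genes alone, the highest GC control and the omission of shared-probe suffixes were added after seeing the data.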

Additional observations from a re-analysis of the deposited data

Results flagged for a closer look

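Among 55 groups of 4 arrays examined, 2 held an array far from the others. Chance gives about 1 in 20, so this count is not above it. The median of 13 cytosolic heat shock proteins was 10.36 in ND 3, while the other 3 ND arrays, ND 4 included, lay between 10.56 and 10.59. Its gap to the nearest array was 0.87 of the whole range. The median of 17 complement genes was 7.87 in ND 2, while the others lay between 7.58 and 7.62, a gap of 0.862 of the range.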

How the results depend on the processing

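The count of genes above background was 8066. It was 4658 with the highest Y-linked gene and 4806 with the highest GC control as background, and 8105 to 8382 when an ND array was left out. The 44 markers of other lineages above background became 22 with the 99th percentile and 28 with control probe sets that match no mouse gene. They became 16 with the highest Y-linked gene, 18 with the highest GC control and 92 with receptor genes alone. In the order named, these backgrounds passed 5420, 6827, 4658, 4806 and 10627 of all genes. Leaving out an array gave 44 to 54 markers. The median absolute difference between arrays, 0.11, was 0.118 with all 4 ND arrays and 0.145 over genes above background. The mean Pearson's r of 0.9939 was 0.9928 and 0.9819 in these settings, and 0.9935 to 0.9946 when an array was left out. The results are counts, differences and correlations within 1 group, so they have no direction that could reverse. Of 306 alternative values 228 stayed within the tolerance, which for counts was 1.5 times, and 78 moved. The cause was not tested, other than that a higher background by construction passes fewer genes. No paired analysis was possible because the results come from no test. Signal near background limits what can be said of genes under about the 95th percentile of the reference genes.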

Other observations

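Hox genes, the transcription factors that record position along the body, were above background in 11 of 34 (32.4%, beside 47.2% of all genes). Hoxc8 read 10.10, 9.87 and 10.34, Hoxd9 9.69, 9.85 and 9.48, Hoxc9 9.44, 9.34 and 9.62, and Hoxc10 9.31, 9.28 and 9.44. The distal genes Hoxa13 and Hoxd13 had means of 6.00 and 5.92 and Hoxc13 4.89, none of them above background. Clock genes and their output factors were above background in 12 of 17 (70.6%). They were led by Bhlhe40 at 11.41, Rora at 11.13, Nfil3 at 11.06 and Npas2 at 9.71.

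Imprinted genes and noncoding RNAs were above background in 15 of 19 (78.9%, beside 47.2% of all genes). Besides Malat1 the highest were the growth-restraining factor Plagl1 at 11.67, the maternally expressed noncoding RNA Meg3 at 11.48 and Sgce at 11.33. Cytochrome P450 enzymes were above background in 13 of 68 (19.1%). Cyp2f2 was in the first 100 with 12.34, 12.19 and 12.45. The retinoic acid hydroxylase Cyp26b1 had a mean of 11.61 and Cyp4b1 of 11.24, and Cyp1b1 read 10.04, 10.22 and 9.10, with ND 3 lowest.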
